A study of Drosophila melanogaster with 4 samples.

Results

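Hr3, Hr4, ftz-f1 and Blimp-1 are the genes that time the passage from the larval to the pupal hormone response, and binding of the nuclear receptor Eip78C at and around them was described here in newly formed prepupae of Drosophila melanogaster. They are 4 of 13968 protein-coding genes annotated on the chromosome arms, taken by their symbols, with no measured value in the rule, though the set was proposed with results of these data known. Every peak summit inside each gene and within 5 kb to either side (the gene's window) was taken. The windows held 41 of the 8282 summits of the thresholded peak set, called the optimal list below: 12 at Hr3, 15 at Hr4, 9 at ftz-f1 and 5 at Blimp-1. Some summits share a peak: at Hr3 those at 10211019 and 10210811 have 1 interval, as do those at 10200317 and 10200110. The intervals of Hr3 10237966 and 10237765 overlap, as do those of Blimp-1 5630349 and 5630553. Summit counts at these genes therefore exceed the number of separate peak regions. All animals belonged to 1 group, the strain Eip78C-GFP, in which Eip78C carries green fluorescent protein at its C-terminus, collected whole as white prepupae with both sexes mixed and the age given as unknown. The labels call the strain both a transgenic line and an insertion targeting Eip78C, and do not give the driving promoter or the state of the unmodified gene. Chromatin was recovered with an antibody against the tag and sequenced (ChIP-seq) in 4 biological replicates. No untagged, input or later-stage sample was analysed here, so background and time were not measured here. The authors called each replicate list with a control alignment, which was not examined here.

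The 4 genes belong to a relay set off by the moulting hormone ecdysone. The hormone pulse that ends larval life induces Hr3, a ROR-type nuclear receptor, and Hr4, a nuclear receptor related to the vertebrate germ cell nuclear factor, and both hold down early genes and help to switch on ftz-f1 once the hormone falls. Blimp-1, a zinc finger repressor that is itself induced by ecdysone and is short-lived, holds ftz-f1 silent until it decays, and the receptor made from ftz-f1 then gives tissues the competence to answer the next pulse. Eip78C is a Rev-erb type receptor, and in vertebrates Rev-erb and ROR receptors recognise similar DNA half-sites of the AGGTCA type. White prepupae stand at the start of this relay.

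Each deposited list gives peaks with a signal score by the authors, whose scale is not stated, so peaks were compared by rank within a list, with rank 1 the strongest. The lists hold no read counts, so the depth behind them is unknown, and neither counting intervals nor floors could be given. Each replicate list held 30000 peaks, and its 8282 strongest, as many as the optimal list holds, were used where replicates were counted. Of the 41 optimal summits, 28 (68.3%) lay in a peak that overlapped one of these strongest peaks in all 4 replicates, against 61.1% of all optimal summits. Overlap meant at least 1 bp, and summits that share an interval are met together. The 28 thus include Hr3 10211019 and 10200317, with no peak over them in replicates 2 and 3. By the stricter rule used for ranks below, in which the replicate peak must hold the optimal summit, 25 of the 41 had all 4 ranks within 8282. The optimal list equals the strongest peaks called on the 4 replicates pooled, so this share is not independent of how the list was made. In whole animals, the share of cells in which a site is bound and the strength of binding per cell cannot be told apart.

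The summits lay mostly in introns. By their own gene, 26 of the 41 were in an intron more than 1 kb from its transcription start sites (TSSs), 6 within 1 kb of a TSS, 1 in a 3′ UTR and 8 in the flanks. Over all optimal summits, 40.4% were intronic and over 1 kb from a TSS. Each window is a gene of at least 20 kb with flanks of only 5 kb, so summits far from genes are left out. The share of window sequence that is intron was not measured. Whether summits favoured introns beyond that share was therefore not tested, and the promoter shares that follow were not adjusted for it either. Counting the TSSs of neighbouring genes too, 13 of the 41 (31.7%) lay within 1 kb of a TSS, against 37.2% of all optimal summits. The nearest TSS of a protein-coding gene belonged to another gene for 15 of the 41, of which 8 were at Hr3. Of the 12 distinct TSSs of the 4 genes, 5 had an optimal summit within 1 kb, and 4 had none within 1 kb even in the relaxed pooled list of 30000 peaks.

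**Figure D1:**
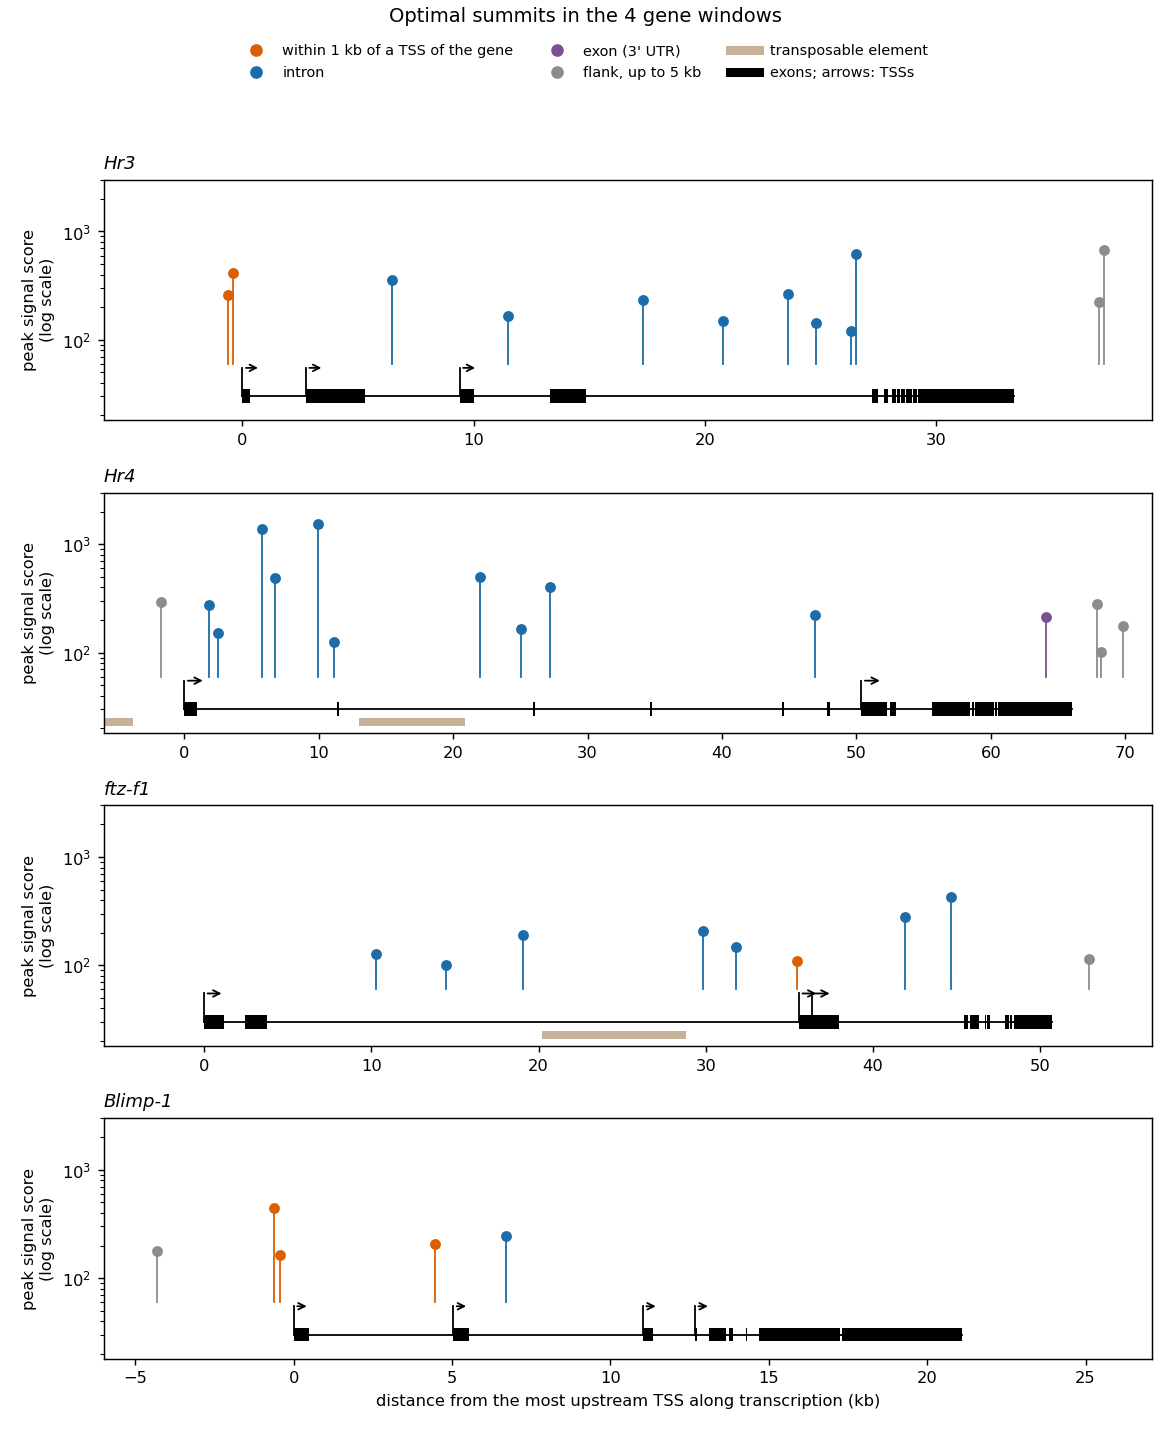
Signal score (log scale) of each optimal summit against its distance in kb from the most upstream TSS of Hr3, Hr4, ftz-f1 and Blimp-1, with exons in black, TSSs as arrows and transposable elements in tan. The 2 tallest summits stand 5.81 and 9.97 kb downstream of the first Hr4 TSS, and the promoter of the long ftz-f1 transcript has no summit.

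Hr3 (FBgn0000448) lies on arm 2R from 10203995 to 10237348, minus strand, in dm6, with 6 transcripts from 3 TSSs. Its strongest summit inside the gene, at 10210811, ranked 773 of the optimal list (signal 617). Replicates 1 to 4 placed it at 863, 677, 906 and 728, with a mean of 794 ± 109 (SD, n = 4). No replicate summit was more than 54 bp away. It lies 17146 bp downstream of the start of Hr3-RA, RF and RH, in intron 2 of Hr3-RA and intron 1 of Hr3-RD. It is also inside CG12912, CG46321 and the noncoding gene lncRNA:CR46322, and the start of CG34221, at 11100 bp, is nearer.

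The long first intron of Hr3-RD and Hr3-RC held all 8 intronic summits of Hr3, with median spacing of 2775 bp over the window. All 8 also lie inside CG12912. After the strongest came the one at 10230856 (rank 1876), 2899 bp upstream of the Hr3-RA start, which ranked 3698, 1737, 2422 and 1604 in the replicates. The summit at 10213770 (rank 2781) ranked 2647, 3125, 2489 and 3406, and the one at 10220017 (rank 3330) ranked 3201, 3496, 3958 and 4139. These 3 sites were among the strongest 8282 peaks of every replicate. The summits at 10212564 and 10225868 were weaker in 1 replicate each, at rank 18541 in replicate 2 and 14435 in replicate 3.

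At the Hr3 promoters the list was uneven. The most upstream start, that of Hr3-RD, had optimal summits 417 bp (rank 1484) and 618 bp (rank 2903) upstream. The nearer ranked 2815, 1534, 2880 and 679 in replicates 1 to 4, so replicate 4 stood highest. In replicate 4 the peak of rank 679 held both optimal summits, with its own summit 39 bp from the nearer one. Both lie closer to the start of Hdc, the histidine decarboxylase gene on the other strand, at 223 and 22 bp upstream of it, and neither can be given to 1 of the 2 genes. No summit in any list lay within 1 kb of the shared start of Hr3-RC, Hr3-RI and CG12912. The start of Hr3-RA, RF and RH, shared with CG46321, had no optimal summit within 1 kb, and its best ranks were 29075, 6100 and 17927 in replicates 1, 3 and 4, with none in replicate 2.

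The strongest summit of the whole Hr3 window was outside the gene, at 10200110 in the 3′ flank, with rank 662 (signal 670). Replicates 1 to 4 placed it at 563, 586, 523 and 1026, with a mean of 675 ± 236 (SD, n = 4), and replicate 4 was weaker than the rest. It lies 399 bp upstream of the start of the neighbouring gene CG34221 and 27847 bp from the nearest Hr3 TSS.

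Hr4 (FBgn0264562), on the X from 1941940 to 2007956, plus strand, carried the 2 strongest summits of the set. The stronger, at 1951910, ranked 81 (signal 1549), and the other, at 1947745, ranked 117 (signal 1387). Replicates 1 to 4 placed the stronger at 127, 110, 67 and 69, with a mean of 93.3 ± 29.98 (SD, n = 4). They placed the other at 140, 132, 104 and 96, with a mean of 118 ± 21.3 (SD, n = 4). The ranges of the 2 sites overlap although the first was the stronger in every replicate, and both stand far above every other summit of the 4 genes in each replicate. Replicate summits stayed within 17 bp and 23 bp of the optimal ones.

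Both sites lie in intron 2 of Hr4-RC, 9970 and 5805 bp downstream of the start that 7 of the 9 Hr4 transcripts share. The DNA under them is shown because these are the best-bound places of the 4 genes, with 100 bases on either side of the summit, 5′ to 3′ on the plus strand of the RefSeq genome (dm6). Capitals mark GNGAAAG, a core that Blimp-1 is known to recognise, on either strand. Neither window holds an AGGTCA half-site, and the GNGAAAG copies begin 100 bases before and 86 bases after the summit, far from its centre.
Hr4 summit of rank 81 (chrX:1951810-1952010): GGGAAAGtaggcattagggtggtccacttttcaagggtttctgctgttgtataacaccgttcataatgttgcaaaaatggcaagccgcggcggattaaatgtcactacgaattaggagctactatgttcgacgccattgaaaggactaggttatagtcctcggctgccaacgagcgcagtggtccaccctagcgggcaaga
Hr4 summit of rank 117 (chrX:1947645-1947845): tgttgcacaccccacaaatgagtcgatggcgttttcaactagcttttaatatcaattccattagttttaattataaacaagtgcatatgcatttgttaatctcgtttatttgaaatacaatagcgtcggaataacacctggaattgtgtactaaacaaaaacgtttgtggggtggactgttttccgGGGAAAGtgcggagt

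The same intron of Hr4 held 4 further summits, at 1943781, 1944416, 1948694 and 1953078, with ranks 2651, 5432, 1158 and 6699. The strongest of these ranked 1930, 1103, 1169 and 927 in the replicates, and the weakest was among the strongest 8282 peaks of 2 replicates only. Downstream introns held 4 more. The summit at 1963955 (rank 1117) ranked 1284, 1203, 1243 and 891, and that at 1969144 (rank 1545) ranked 1854, 2062, 2268 and 1028. The ranges of these 2 sites and of the summit at 1948694 overlap. The next 19.7 kb downstream had no optimal summit, up to the one at 1988865 (rank 3570), which is 3435 bp upstream of the start of Hr4-RE and Hr4-RF.

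Neither Hr4 start had an optimal summit within 1 kb. At the upstream start the best ranks were 7876, 8201 and 12375 in replicates 1, 3 and 4, and replicate 2 had no peak there at all. At the downstream start they were 21393 and 25706 in replicates 3 and 4 with none in the others. The 5′ flank summit at 1940208 (rank 2444) lies 99 bp upstream of the start of CG3587, a separate gene, and the 3 flank summits past the 3′ end lie nearer to PIG-K or east. Hr4 was also the gene with a summit in an exon, at 2006012 in its 3′ UTR (rank 3707), which ranked 3780, 4357, 7201 and 2690.

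ftz-f1 (FBgn0001078), on arm 3L from 18750607 to 18801309, minus strand, had its stronger peaks in introns and weak ones at its starts. The strongest summit, at 18756676 in the intron that follows the short-transcript starts (intron 1 of ftz-f1-RA, intron 3 of ftz-f1-RB), ranked 1389 (signal 430). Replicates 1 to 4 placed it at 1148, 1903, 1783 and 1175, with a mean of 1502 ± 397 (SD, n = 4). This summit lies nearer to the start of the neighbouring gene Atg3 (7989 bp) than to that of ftz-f1-RA (8280 bp). The next, at 18759395 in the same intron, ranked 2647, and 3844, 2818, 1701 and 4862 in the replicates. The 2 sites kept this order in replicates 1, 2 and 4, and in replicate 3 the order was turned round.

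The DNA of these 2 ftz-f1 summits is given, 5′ to 3′ on the plus strand, because ftz-f1 is the gene that the other members act on. Capitals mark AGGTCA, the half-site of this receptor type, on either strand. The stronger site has none and is AT-rich, with 25.4% G and C. The other holds 1 copy that begins 25 bases before the summit and is part of TAGGTCA.
ftz-f1 summit of rank 1389 (chr3L:18756576-18756776): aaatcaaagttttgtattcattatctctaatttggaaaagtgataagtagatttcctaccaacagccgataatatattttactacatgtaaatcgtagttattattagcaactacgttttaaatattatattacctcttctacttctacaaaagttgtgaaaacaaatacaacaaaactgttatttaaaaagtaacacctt
ftz-f1 summit of rank 2647 (chr3L:18759295-18759495): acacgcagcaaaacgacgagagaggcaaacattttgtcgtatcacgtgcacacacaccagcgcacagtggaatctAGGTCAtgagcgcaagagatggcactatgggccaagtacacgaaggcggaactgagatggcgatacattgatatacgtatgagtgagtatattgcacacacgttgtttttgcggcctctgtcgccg

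The long second intron of ftz-f1-RB held 5 further intronic summits more than 1 kb from a start, with ranks between 3819 and 8241. The 2 best, at 18771500 and 18782255, were among the strongest 8282 peaks of every replicate, at 3915, 4998, 3790 and 4834 and at 2917, 6180, 4018 and 5411. The 2 nearest to the 5′ end, at 18786846 and 18790996, were among them in 2 replicates each. No optimal summit lay within 10313 bp of the start of ftz-f1-RB. Within 1 kb of that start the pooled list had no peak, and the best replicate ranks were 9649 in replicate 1 and 27957 in replicate 4, with none in replicates 2 and 3.

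The short ftz-f1 transcripts start 35.6 and 36.4 kb downstream of ftz-f1-RB, and their promoters had 1 weak summit, at 18765882. It lies 138 bp upstream of the start of ftz-f1-RC and ftz-f1-RD and 926 bp upstream of that of ftz-f1-RA. Its rank was 7582, and 16123, 21546, 8419 and 5890 in replicates 1 to 4, so only replicate 4 had it among its strongest 8282 peaks. The 3′ flank summit at 18748370 (rank 7267) lies 3 bp upstream of the start of Nufip and was present at that strength in replicate 1 only.

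Blimp-1 (FBgn0035625), on arm 3L from 5630983 to 5652094, plus strand, had its strongest summit upstream of a promoter. The strongest summit, at 5630349, ranked 1316 (signal 447) and lies 634 bp upstream of the start shared by Blimp-1-RA, RB and RF. Replicates 1 to 4 placed it at 1406, 1166, 1070 and 1819, with a mean of 1365 ± 334 (SD, n = 4). A second summit 204 bp closer to the start, at 5630553, ranked 4952. In replicates 1 and 3 a single peak covered both, so the weaker one was resolved in replicates 2 and 4 only, at ranks 4885 and 4668.

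The start of Blimp-1-RC had a summit 558 bp upstream, at 5635457 (rank 3795), which ranked 9776, 3368, 3774 and 3837. Replicate 1 was far weaker there than the other 3. The one intronic summit, at 5637680 (rank 3135), 1665 bp downstream of the same start, ranked 2926, 4189, 2657 and 3811. A 5′ flank summit at 5626672 (rank 4504) ranked 23002 in replicate 1 but 2790, 4821 and 4600 in replicates 2 to 4. The starts of Blimp-1-RD and Blimp-1-RE had no pooled peak within 1 kb, and the 3′ part of the gene and its 3′ flank had no optimal summit.

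The Blimp-1 promoter windows are printed, 5′ to 3′ on the plus strand, because the strongest summit of the gene lies at one of its promoters and the other holds a half-site. Capitals again mark AGGTCA on either strand. The strongest summit has no copy, and the one at the Blimp-1-RC promoter has 1 on the minus strand, read here as TGACCT, which begins 84 bases after the summit.
Blimp-1 summit of rank 1316 (chr3L:5630249-5630449): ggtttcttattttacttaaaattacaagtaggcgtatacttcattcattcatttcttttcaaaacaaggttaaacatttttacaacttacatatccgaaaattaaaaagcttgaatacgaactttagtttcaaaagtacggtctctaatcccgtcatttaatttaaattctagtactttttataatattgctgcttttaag
Blimp-1 summit of rank 3795 (chr3L:5635357-5635557): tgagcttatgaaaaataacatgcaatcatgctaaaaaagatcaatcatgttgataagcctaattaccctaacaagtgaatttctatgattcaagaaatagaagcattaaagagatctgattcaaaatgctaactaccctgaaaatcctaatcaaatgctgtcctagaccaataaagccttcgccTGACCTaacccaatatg

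**Figure D2:**
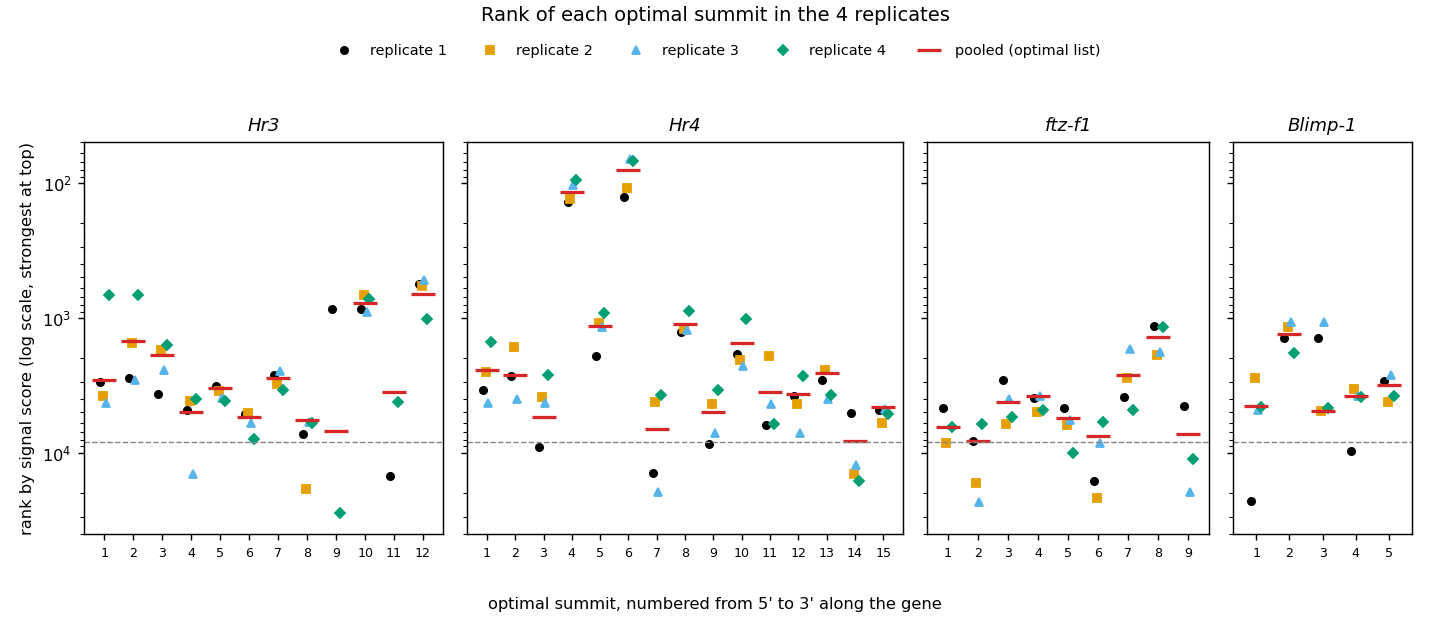
Rank by signal score (log scale, strongest at the top) of the 41 optimal summits in each replicate list, numbered 5′ to 3′ along each gene, with the red bar giving the rank in the optimal list and the dashed line rank 8282. Symbols of strong summits, such as Hr4 numbers 4 and 6, cluster tightly, and those of weak ones spread over much of the scale; a missing symbol means no peak over the summit.

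Within a gene, promoters and introns could be set against each other in each replicate, taking the strongest summit of each kind anywhere in the list of 30000. At ftz-f1 the best promoter summit ranked 8632, 9476, 8419 and 5890 in replicates 1 to 4, and the best intron summit 1148, 1903, 1701 and 1175. Promoter ranks were 5.52-fold larger, so the best promoter summit was weaker in 4 of 4 replicates, and the groups did not overlap (exact sign-flip permutation test over replicates, two-sided, p = 0.125, adjusted p = 0.188 over 3 genes). With 4 replicates 0.125 is the smallest p this test can give, so no comparison of this kind can pass 0.05. The best of many summits was set against the best of few. At ftz-f1 the replicate lists held 25, 18, 27 and 29 intron summits and 5, 2, 1 and 4 promoter summits. In these whole lists introns held more summits than promoters at all 4 genes, so the order is not one of strength per site. In the optimal list Blimp-1 had 3 promoter summits and 1 intron summit.

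Blimp-1 showed the opposite order with promoters taken to 1 kb. Its best promoter summit ranked 1406, 1166, 1070 and 1819 and its best intron summit 2926, 4189, 2657 and 3811, so the promoter was stronger in 4 of 4 replicates (0.400-fold rank, exact sign-flip permutation test, p = 0.125, adjusted p = 0.188). This order rests on the distance, since the strongest summit lies between -541 and -690 bp from its TSS in the replicates. With promoters taken to 500 bp, replicate 1 had no promoter summit and replicates 2 to 4 had promoter ranks of 4885, 25958 and 4668 and intron ranks of 3368, 2657 and 3811, so the promoter was the weaker. The intron rank of 3368 in replicate 2 is that of the Blimp-1-RC promoter summit, 588 bp upstream of its start. With promoters taken to 2 kb the log2 ratio was -2.65, against -1.32 at 1 kb. The promoter ranks were then the same, and the intron ranks were 15222, 7438, 4940 and 8803. Only the intron side moved, since the intronic summit at 5637680 counts as a promoter summit at that distance. At Hr3 the promoter ranked 2815, 1534, 2880 and 679 and the intron 863, 677, 906 and 728. The promoter was weaker in 3 of 4 replicates (2.16-fold larger rank, exact permutation test, p = 0.25, adjusted p = 0.25), and the 2 kinds overlap. Hr4 had a promoter summit in 3 replicates only, at 7876, 8201 and 12375, beside intron ranks of 127, 67 and 69 in the same replicates, and was not tested.

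**Figure D3:**
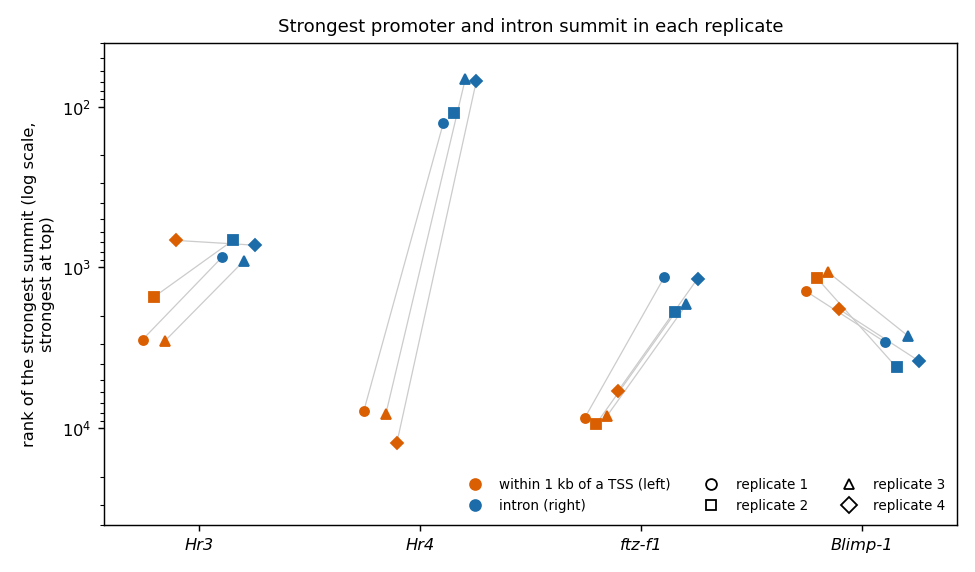
Rank (log scale, strongest at the top) of the strongest summit within 1 kb of a TSS (orange, left) and of the strongest intronic summit (blue, right) in each replicate, joined by a line per replicate. Introns lead at Hr4 and ftz-f1, promoters lead at Blimp-1 at this distance but not within 500 bp, and Hr3 is mixed; replicate 2 had no promoter summit at Hr4.

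Ordered by the strongest summit of the window, Hr4 came first, then Hr3, then Blimp-1 and ftz-f1 together. The windows run from 31.1 kb at Blimp-1 to 76.0 kb at Hr4. The replicate lists held 12, 11, 11 and 13 summits at Blimp-1 and 38, 30, 44 and 43 at Hr4. The best was thus taken from unequal numbers, and the ranks were not adjusted for this. The best ranks in replicates 1 to 4 were 127, 110, 67 and 69 at Hr4, 563, 586, 523 and 679 at Hr3, 1406, 1166, 1070 and 1819 at Blimp-1, and 1148, 1903, 1701 and 1175 at ftz-f1. The best Hr3 peak was the one by CG34221 in replicates 1 to 3 and the one by Hdc in replicate 4. The ranks of Hr3 were 6.53-fold those of Hr4, and those of Blimp-1 2.28-fold those of Hr3, in 4 of 4 replicates each with no overlap (exact permutation test, p = 0.125 for each, adjusted p = 0.15 over 6 pairs). ftz-f1 and Blimp-1 overlapped, with a ratio of 1.08 and 2 of 4 replicates in each direction (exact permutation test, p = 0.75, adjusted p = 0.75). Inside the gene bodies alone, which leave out the Blimp-1 promoter summits upstream of the gene, the log2 ratio of ftz-f1 over Blimp-1 was -1.13, so ftz-f1 was the stronger. There the log2 ratio of Blimp-1 was 2.00 over Hr3, against 1.19 in the windows, and 5.14 over Hr4, against 3.90.

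The mean number of summits per kb was higher in each window than over its arm, although no test could pass 0.05 and replicate 1 was lower at Blimp-1. Hr3 had 11, 11, 10 and 13 summits among the strongest 8282 of replicates 1 to 4, or 0.259 ± 0.029 per kb, against 0.0565 ± 0.0005 per kb of arm 2R (SD, n = 4 each). Hr4 had 14, 17, 18 and 17, or 0.217 ± 0.0228 per kb, against 0.0644 ± 0.0030 per kb of the X. The density was 4.58-fold that of the arm at Hr3 and 3.36-fold at Hr4, in 4 of 4 replicates (exact sign-flip permutation test, p = 0.125 and adjusted p = 0.167 for each). Over the whole replicate lists the log2 ratio was 1.55 at Hr3, against 2.19, and 1.12 at Hr4, against 1.75.

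The other 2 genes were less dense and varied more. ftz-f1 had 13, 6, 6 and 8 summits (0.136 ± 0.0544 per kb, against 0.0663 ± 0.0014 per kb of arm 3L; 1.94-fold, 4 of 4 replicates, exact permutation test, p = 0.125, adjusted p = 0.167). Blimp-1 had 2, 6, 5 and 5 (0.145 ± 0.0557 per kb; 2.02-fold, 3 of 4 replicates, exact permutation test, p = 0.25, adjusted p = 0.25). Among the 4141 strongest peaks of each replicate the log2 ratio at ftz-f1 was 0.24, against 0.96. Replicate 1 was the highest at ftz-f1 and the lowest at Blimp-1. The README text that came with the lists does not name the list of replicate 1 among the sources of the optimal list.

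**Figure D4:**
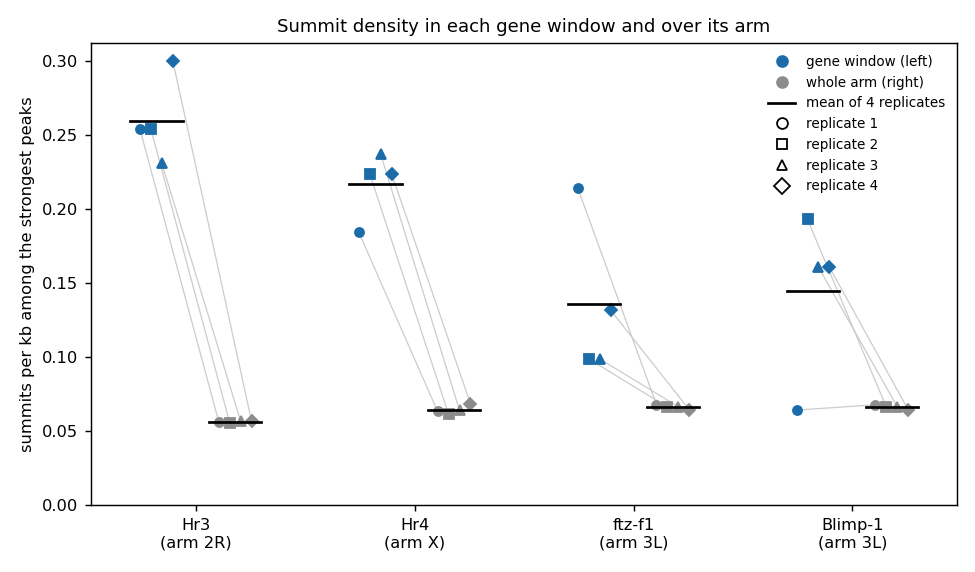
Summits per kb among the 8282 strongest peaks of each replicate, in the window of each gene (blue, left) and over its whole arm (grey, right), with short black lines at the means over 4 replicates. All replicates are higher in the window except replicate 1 at Blimp-1.

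The 4 genes were also placed among other genes. A summit in the window was present at 4 of 4 members, against 49.2% of all protein-coding genes, and within 1 kb of a TSS at 3 of 4, against 22.0%. An intronic summit over 1 kb from the gene's TSSs was present at 4 of 4 members, against 8.38% of all genes and 59.6% of the 1020 genes of at least 20 kb, the size class of all members. The shares of 49.2% and 22.0% were not matched for gene length or number of TSSs. The median window of the long genes held 3 summits. In the optimal list the windows held 0.277 summits per kb at Hr3, 0.197 at Hr4, 0.148 at ftz-f1 and 0.161 at Blimp-1, where the median of those 1020 long genes was 0.0517. Of the long genes, 25 were at least as dense as Hr3, 81 as Hr4, 165 as ftz-f1 and 138 as Blimp-1.

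The pooled list held 78 more summits in the windows below the strength of the optimal list. None was among the strongest 8282 peaks of all 4 replicates, 49 were in none of them, and 11 were in 2 or more. Of these 11, 9 lay within 250 bp of an optimal summit. The other 2 were the Hr4 site at -196 bp from its upstream start (pooled rank 9032; 7876 and 8201 in replicates 1 and 3, with no peak over it in the others) and an intronic Blimp-1 site at 5633770 (pooled rank 8473; 23384, 7438, 4940 and 15150 in the replicates).

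Transposable elements in 2 of the genes fell in stretches without summits. A roo element of 8.62 kb in the long ftz-f1 intron and a Stalker2 element of 7.88 kb in an Hr4 intron held no optimal and no pooled summit. How reads that map to repeats were treated in peak calling is not stated in the sources used here, and its part in these gaps was not tested.

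Sequence elements were counted on both strands in the 201 bases around each summit. AGGTCA was present at 3 of the 41 summits (7.32%), 1 each at Hr4, ftz-f1 and Blimp-1 and none at Hr3, against 4.06% of all 8282 optimal summits. TAGGTCA, which contains it, was present at 2 (4.88%, against 1.05%), and AAGGTCA, the core of the site of the FTZ-F1 protein, at 0 (against 124 of all 8282). A pair of AGGTCA copies facing each other 1 base apart, or in tandem 2 bases apart, was found at no summit of the list. GNGAAAG was present at 4 (9.76%, against 9.20%) and GAGAG at 10 (24.4%, against 23.0%). With so few summits these shares are descriptions, and a missing match says only that these letters are not in the window.

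Genes of the surrounding pathway were counted from 2 lists. Of 10 genes of the ecdysone cascade (EcR, usp, tai, Eip74EF, Eip75B, br, Eip78C, Eip93F, Hr38 and Hr39), 10 had an optimal summit in the window, 7 within 1 kb of a TSS and 9 in an intron, with a median of 0.136 summits per kb, against 0.179 for the 4 members. Over all genes these shares were 49.2% in the window, 22.0% within 1 kb of a TSS and 8.38% in an intron, or 59.6% in an intron among long genes, and all cascade genes but usp are at least 20 kb long. The shares of 49.2% and 22.0% were not matched for length. Of 7 genes that act with or after ftz-f1 or answer juvenile hormone (Edg78E, Edg84A, Mmp2, shd, mbf1, Met and gce), 6 had a summit in the window, 3 within 1 kb of a TSS and 2 in an intron (median 0.0906 per kb). In the cascade list the best ranks ran from 5 at Eip78C itself and 133 at Eip75B, whose receptor binds and inhibits Hr3, to 5529 at Hr39. In the other list the exception was Edg84A, a cuticle gene activated by the FTZ-F1 protein, and Edg78E, a similar gene, had 1 flank summit of rank 7328. shd, which makes the final active hormone, had 4 (best rank 2315), and Mmp2, a matrix metalloproteinase gene, had 7 (best rank 1905). The strongest summit of this list was at Met, which had 2 (best rank 188, in its downstream flank). gce had 6 (best rank 1870) and mbf1 had 1 (rank 4294), both best in the downstream flank.

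The genes whose best summit was most like that of each member in replicate rank were found by the Euclidean distance of log2 ranks over the 4 replicates, among 6020 genes (6019 for Hr3). For Hr4 these were shn (99, 118, 80 and 86 in replicates 1 to 4; distance 0.55) and CG13506 (125, 84, 87 and 81; distance 0.59). For Hr3 they were CG42494 and Girdin, which share a summit (distance 0.39). For ftz-f1 they were Tep2 and Tep3 (shared summit, distance 0.26), and for Blimp-1 they were boi and trol (shared summit, distance 0.24). This likeness rests on 1 summit per gene and on 4 values.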

How the data were processed

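ChIP-seq peak lists of 4 biological replicates, all in 1 group, were used on dm6. Per the README text that the authors deposited beside the lists, they called each replicate list on that replicate with a control alignment, called a further list on the 4 pooled, and derived the thresholded list from replicates 2, 3 and 4 and the pooled list by irreproducible discovery rate. No source used here names the aligner, caller, threshold or versions. Per the deposited lists, each peak has a signal score and −log10 of a q-value. All 8282 thresholded peaks sat at the ceiling of that column (4.26), so peaks were ranked by signal within a list. Peaks and annotation (Ensembl release 115, dm6) share arm names, and no peak ended beyond an arm. The dm3 lists were not used here.

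Summits are start plus summit offset, 1-based. Each optimal summit was matched to the best-ranked replicate peak whose interval holds it; a peak met by a replicate overlaps one of its strongest by at least 1 bp. Differences over replicates were tested with exact two-sided sign-flip permutation tests on log2 ratios, with Benjamini-Hochberg adjustment within each family. With 4 replicates a sign-flip p-value is 0.125 whenever all 4 ratios have the same sign, whatever their spread. The p-values cover replicates of 1 group only. Simulated summits planted in the 4 windows were counted correctly in 80 of 80 cases. Python 3.11.15, numpy 2.4.6 and pandas 2.3.3 were used, and sequences were read from the RefSeq dm6 genome. The members, gene lists, motifs and tests were chosen with earlier results of these data known. The rule for named genes takes the 4 members, neighbours with a nearer TSS, and 2 genes most like each member, and 2 lists of pathway genes; which of the listed genes are given with values was chosen after their values were seen. Alternatives were the flank, the promoter distance, the strength threshold, the matching rule, the sequence window and leaving out each replicate.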

Additional observations from a re-analysis of the deposited data

Results flagged for a closer look

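Of 55 sets of 4 replicate values looked at, 5 held a replicate far from the other 3 by Dixon's criterion. That criterion marks about 1 set in 20 where values are independent and normally distributed. Raw ranks were used here, and in all 5 sets the outlying rank was the weakest, so that rate need not hold. At Hr3 the summit at 10225868 ranked 14435 in replicate 3 and between 3990 and 4791 in the others, and the summit at 10212564 ranked 18541 in replicate 2 and between 5882 and 7330 in the others. The strongest summit of the Hr3 window, at 10200110, ranked 1026 in replicate 4 and between 523 and 586 in the others. At Blimp-1 the 5′ flank summit at 5626672 ranked 23002 and the Blimp-1-RC promoter summit at 5635457 ranked 9776 in replicate 1, against 2790 to 4821 and 3368 to 3837 in replicates 2 to 4. The Blimp-1 means without replicate 1 are 4070 and 3660. The cause of these differences was not tested.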

How the results depend on the processing

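Summit counts depended on the list. In the relaxed pooled list the windows held 31 summits at Hr3, 40 at Hr4, 35 at ftz-f1 and 13 at Blimp-1. In the stronger part of the optimal list (ranks to 4141) 3 were left at ftz-f1 and 3 at Blimp-1, and among peaks met by all 4 replicates 4 and 3. Without flanks Blimp-1 kept 2. The other 11 counts stayed within 1.5 times. All 32 alternatives of the density comparison and the 17 of the promoter and intron comparison that could be fitted kept their direction. In these and in the gene pairs below, leaving out 1 replicate cannot turn a direction that all 4 share, so those settings could not fail. At Hr3 the promoters of 500 bp and 2 kb gave the same log2 ratio as 1 kb (1.11). The 500 bp promoter at Blimp-1 could not be fitted, as replicate 1 had no summit there, and the other 3 replicates turned to a weaker promoter. The largest density move was at ftz-f1, to a log2 ratio of 0.24 among the 4141 strongest peaks. None could pass 0.05 by the size of the design; leaving out a replicate gave density ratios of 4.36 to 4.76 at Hr3, 3.25 to 3.52 at Hr4, 1.65 to 2.13 at ftz-f1 and 1.79 to 2.60 at Blimp-1. Of the gene pairs, only the log2 rank ratio of ftz-f1 over Blimp-1 changed sign, to -1.13 in the gene body, and between -0.085 and 0.36 with 1 replicate left out; the other 33 of 36 settings kept theirs. With 50 bases on either side, AGGTCA was left at 1 summit, TAGGTCA at 1, GNGAAAG at 1 and GAGAG at 5. Of the alternative mean ranks of single summits, 178 moved by less than the replicate SD and 1 by more (Hr4 2009822, 4410 with replicate summits taken within 150 bp, against 3281). Most of these alternatives leave out 1 replicate, which cannot move a mean of 4 values by as much as their SD. Only a change of the matching rule could have moved a mean by more. Depth is unknown. No paired analysis was possible because all samples form 1 group, so no replicate number is shared between groups; comparisons inside the group were made within each replicate throughout.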
